A study of Mus musculus with 6 samples.

Results

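The fatty acid oxidation enzymes and regulators were followed in hearts of mice in which Ybx1, the gene of an RNA- and DNA-binding Y-box protein, had been deleted in cardiomyocytes. The 31 genes were chosen by name to cover uptake, activation, beta-oxidation, electron transfer and regulation, and each of them was found in 1 protein-coding row of the 78409 genes in the table. All 31 passed the filter on low values and were among the 13717 genes tested. The study compared 3 hearts of Ybx1 cardiomyocyte-specific knockout mice (labelled Ybx1cmKO) with 3 hearts of littermate controls. All 6 mice were 11 months old, and the libraries were made from polyadenylated RNA of the heart. The promoter that drove the deletion, the alleles carried by the controls, the sex of the mice and the part of the heart used are not stated in the sources used here. RNA of the heart includes cells in which Ybx1 was not deleted.

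Long-chain fatty acids are the main fuel of the adult heart. Lipoprotein lipase frees them from circulating triglycerides, transport proteins carry them into the cardiomyocyte, acyl-CoA synthetases activate them, and the carnitine shuttle brings them into mitochondria. There each round of beta-oxidation runs through a dehydrogenase, a hydratase, a further dehydrogenase and a thiolase, and electrons of the acyl-CoA dehydrogenases pass through the electron transfer flavoprotein to the respiratory chain. The nuclear receptors PPAR-alpha and ERR-alpha, with their coactivators PGC-1 alpha and PGC-1 beta, drive transcription of many of these enzymes.

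Promoter sequence from RefSeq (build GRCm38.p6, which is not the build of the deposited table) was matched by symbol for 23 of the 31 genes. The 250 bases before the annotated start are shown for 4 genes on which the results below turn: Hadhb, whose start lies 273 bases from that of Hadha in the opposite direction so that both subunits of the trifunctional protein share the stretch between them, Acadm, and the partners Etfa and Etfb, whose levels parted. Capitals mark AGGTCA, the core site bound by nuclear receptors, GGGCGG, the GC box, and CCAAT, each searched on both strands. Each sequence runs 5′ to 3′ towards the gene.
Hadhb (chr5:30155003-30155252, plus strand): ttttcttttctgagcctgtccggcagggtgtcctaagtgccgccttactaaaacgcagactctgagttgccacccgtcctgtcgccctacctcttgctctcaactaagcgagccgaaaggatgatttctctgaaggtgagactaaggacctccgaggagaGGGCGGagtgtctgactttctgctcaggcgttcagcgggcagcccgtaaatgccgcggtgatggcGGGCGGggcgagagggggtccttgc
Acadm (chr3:153944644-153944893, minus strand): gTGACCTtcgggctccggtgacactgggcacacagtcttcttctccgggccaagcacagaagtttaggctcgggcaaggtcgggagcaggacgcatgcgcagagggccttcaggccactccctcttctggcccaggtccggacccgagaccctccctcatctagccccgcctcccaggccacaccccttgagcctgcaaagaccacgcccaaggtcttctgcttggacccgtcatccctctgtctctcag
Etfa (chr9:55512244-55512493, minus strand): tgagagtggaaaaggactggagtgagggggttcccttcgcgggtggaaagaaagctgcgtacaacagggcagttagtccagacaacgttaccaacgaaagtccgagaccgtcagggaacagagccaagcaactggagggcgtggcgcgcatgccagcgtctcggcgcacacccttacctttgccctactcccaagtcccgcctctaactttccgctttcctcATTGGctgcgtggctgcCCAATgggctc
Etfb (chr7:43443822-43444071, plus strand): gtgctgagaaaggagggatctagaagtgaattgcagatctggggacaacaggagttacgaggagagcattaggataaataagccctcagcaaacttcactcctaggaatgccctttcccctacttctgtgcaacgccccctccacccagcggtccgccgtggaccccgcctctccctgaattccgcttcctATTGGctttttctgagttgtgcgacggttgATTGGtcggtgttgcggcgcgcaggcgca
The windows of Etfa and Etfb each held 2 CCAAT matches, that of Hadhb 2 GC boxes and that of Acadm 1 core site. Over the 23 genes, AGGTCA was found in 3 (Acadm, Acadvl and Echs1), or 13%, and in 14.0% of all 32851 promoter windows of this length. A direct repeat of that core site with 1 base between, the arrangement bound by PPAR-alpha with its partner RXR, was found in none of the 23 and in 0.0335% of all windows. GGGCGG was found in 16 of the 23 (69.6%, against 32.7% of all windows) and CCAAT in 9 (39.1%, against 33.8%). These matches describe the letters in the windows only. The exact repeat is so rare that finding none in 23 genes says nothing of sites for PPAR-alpha. Shares of the 23 genes, which had 26 windows, count genes, while the shares of all windows count windows, so they are not strictly alike.

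Ybx1 was lower in each knockout heart than in any control heart, with 849, 810.2 and 895 CPM across controls 1 to 3 and 203, 171 and 109.7 CPM across knockouts 1 to 3, where CPM is a gene's count relative to its library's total, after TMM correction for composition. Its log2 fold change was -2.40, which edgeR did not call (adjusted p = 0.148) and DESeq2 did (adjusted p = 2.05e-16), so that the absence of a call by edgeR in these 6 libraries does not show the absence of a difference. The libraries held 12270796 to 15141525 counts, and counts of the 31 genes ranged from 99.5 for Slc22a5 in knockout heart 2 to 103322.25 for Lpl in knockout heart 3. Knockout library 3 stood apart: mitochondrial rRNA took 10.7% of its counts and 20.5% to 26.3% of the others', and Malat1, a nuclear RNA, was at 668 deposited CPM against 3317 to 7923 CPM. Results that rest on this library are therefore given with and without it. The 8 cardiomyocyte markers, all detected, summed to 20930.1 to 24466 CPM among controls and 17365 to 22342 CPM among knockouts. They did not move together: Myh6, Myh7 and Ryr2 were lower in each knockout than in each control heart, while Actc1 was highest in knockout heart 3 and lowest in control heart 2. Their part in the levels of the 31 genes was not tested.

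None of the 31 genes passed edgeR's quasi-likelihood test in either direction at a Benjamini-Hochberg adjusted p of 0.05 over all 13717 genes, where 0% of all genes were called. At an unadjusted p of 0.05 the count was also 0 of 31, against 5.14% of all genes, and DESeq2 called none of the 31 and 0.109% of all genes. The 95% confidence interval lay within a 2-fold change either way for 24 of the 31, and for 63.5% of all genes. Of the 31, 22 had a log2 fold change above 0 (51.1% of all genes), with a median of 0.13 where all tested genes had a median of 0.01. Without knockout library 3, 10 of the 31 lay above 0 (48.6% of all genes) and their median was -0.06, and without control library 2, 15 lay above 0 (50.8% of all genes) with a median of -0.02. With no filter on low counts 1 of the 31 was called (Etfa), against 0.4% of all genes, and with the replicate number as a block none was, against 0.0365%. Without knockout library 1, 6 of the 31 had an unadjusted p under 0.05 (Acadm, Hadh, Hadhb, Etfa, Etfdh and Ppargc1b, against 12.7% of all genes), and without knockout library 3, 2 did (Slc22a5 and Slc27a1, against 3.78% of all genes). Without TMM factors the median of all genes moved to 0.17 and that of the 31 to 0.29, with 24 above 0 (67.1% of all genes). Slc27a1, Crat and Ppargc1b were the 3 of 31 whose knockout values all lay under the controls, where 5.82% of all genes did so, and none of the 31 had all knockout values above the controls, against 6.26% of all genes. In bulk RNA of a heart, fewer cells of a type and less RNA per cell cannot be told apart.

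**Figure D1:**
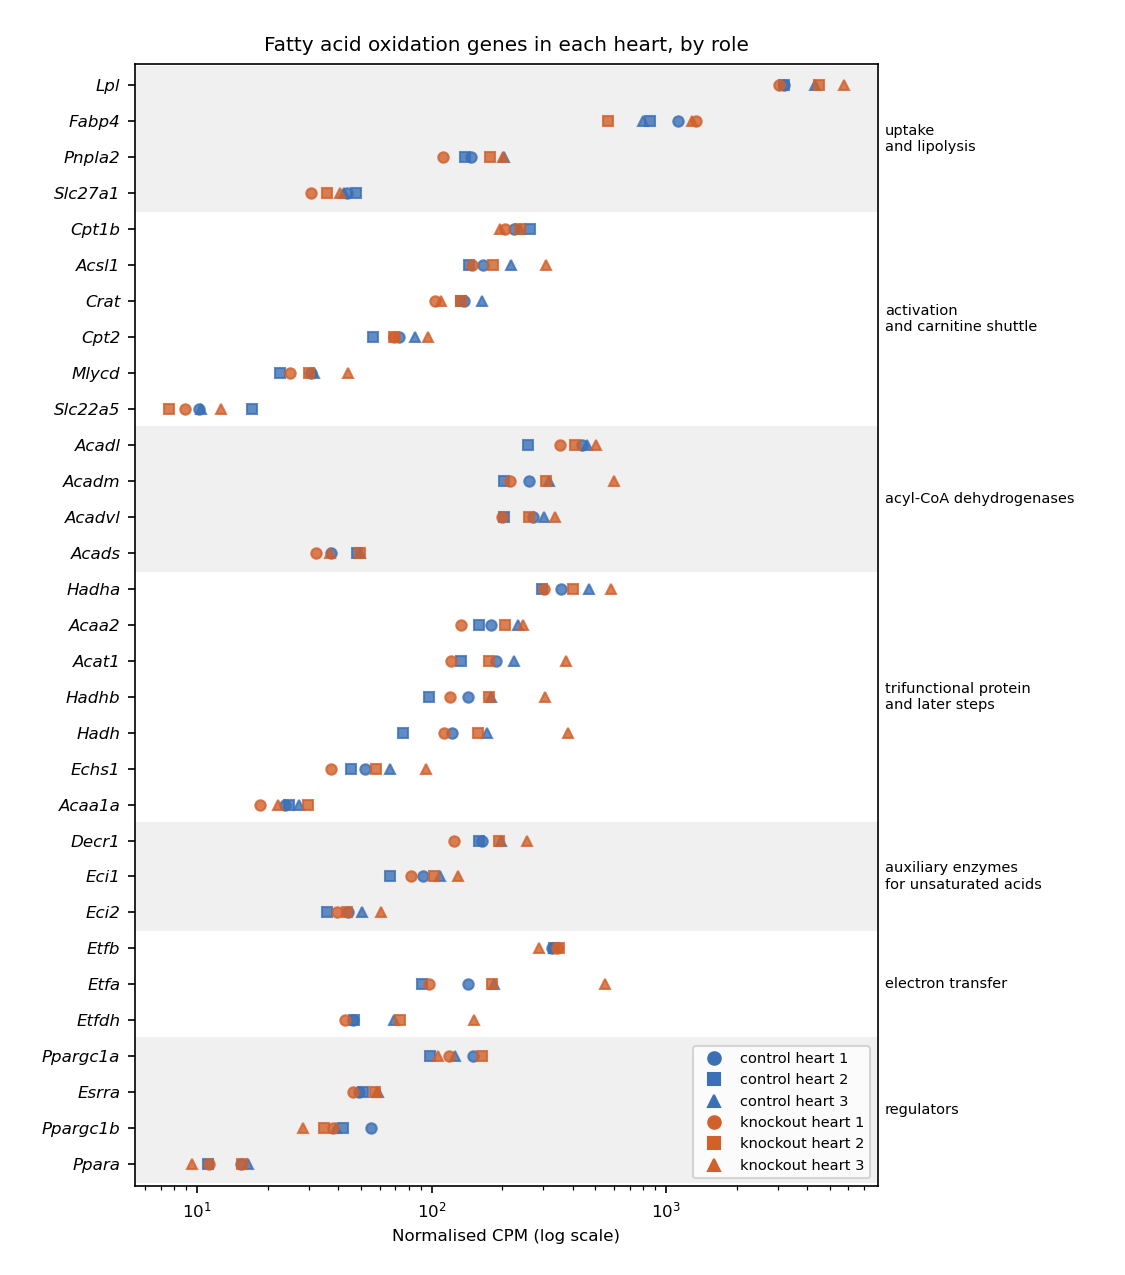
Normalised CPM (log scale) of the 31 fatty acid oxidation genes in each heart, grouped by role, with circles, squares and triangles for hearts 1, 2 and 3 of each group. The orange triangle of knockout heart 3 is the highest of the 6 points in 18 genes, while for Etfb, Cpt1b, Ppara and Ppargc1b it is the lowest.

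Many of the genes shared an order of hearts that cut across the 2 groups. Knockout heart 3 was the highest of the 6 hearts in 18 of the 31 genes (33.9% of all tested genes). These were 3 of the 4 acyl-CoA dehydrogenases, 6 of the 7 genes of the trifunctional protein and later steps, all 3 auxiliary enzymes, 2 of the 3 electron transfer genes and 0 of the 4 regulators, beside genes of uptake and activation. It was the highest knockout heart in 22 (40.5% of all genes). Control heart 3 was the highest control in 24 of 31 (34.1% of all genes) and control heart 2 the lowest control in 20 (39.7% of all genes). The median gene was 0.54 higher on the log2(CPM + 0.5) scale in control heart 3 than in control heart 2, and 0.66 higher in knockout heart 3 than in knockout heart 1, where the medians over all tested genes were -0.01 and -0.01. Together the 31 genes took 0.837%, 0.592% and 1.02% of all counts across controls 1 to 3 and 0.842%, 0.846% and 1.57% across knockouts 1 to 3. More of this came from the 4 genes of uptake and lipolysis, Lpl above all, than from the other 27: they took 0.453%, 0.34% and 0.559% across controls 1 to 3 and 0.497%, 0.475% and 0.866% across knockouts 1 to 3. All counts here include mitochondrial rRNA, whose share was lowest in knockout heart 3. The 4 atrial cardiomyocyte markers, all detected, summed to 124 to 383 CPM among controls and 93.97 to 308 CPM among knockouts. Of these, Myl7 was at 2.90, 21.6 and 74.2 CPM across controls 1 to 3 and 0.610, 14.3 and 46.6 CPM across knockouts 1 to 3. Myl4 and Sln also rose from heart 1 to heart 3 in both groups, while Nppa did so among controls only. The 5 erythroid markers, all detected, summed to 3033 to 4702 CPM among controls and 3552 to 6829 CPM among knockouts, highest in knockout heart 1. The part of either set of markers in the order of hearts was not tested.

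**Figure D2:**
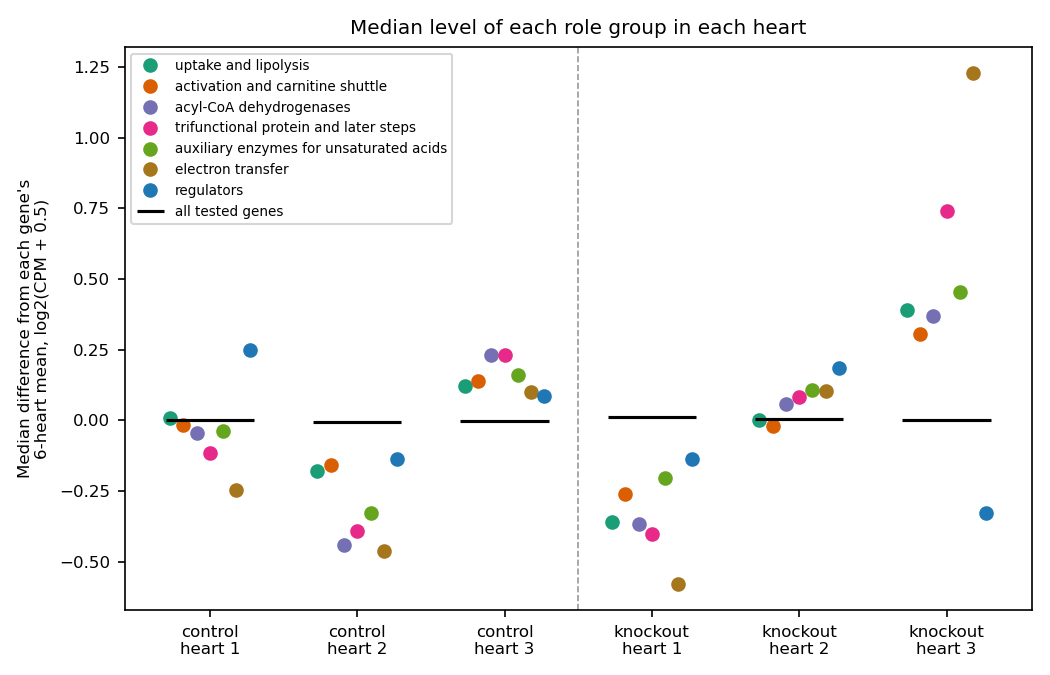
Median difference of each role group from the gene's own mean over 6 hearts, on the log2(CPM + 0.5) scale, for each heart, with black lines for all tested genes. In knockout heart 3 the electron transfer genes reach 1.23 and the trifunctional protein and later steps 0.74, while the regulators lie at -0.33.

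The 2 electron transfer flavoprotein subunits parted in knockout heart 3. Etfa, the alpha subunit, was at 142, 90.5 and 184 CPM across controls 1 to 3 and 97.9, 182 and 551 CPM across knockouts 1 to 3. The knockout heart 3 value was the highest, and the other 2 knockout hearts lay within the range of the controls. Its beta partner Etfb was at 327, 334 and 333 CPM across controls 1 to 3 and 343, 348 and 288 CPM across knockouts 1 to 3, with the lowest value in knockout heart 3. The count ratio of Etfa to Etfb within a library, which scaling factors of whole libraries do not change, was 0.435, 0.271 and 0.551 across controls 1 to 3 and 0.285, 0.522 and 1.92 across knockouts 1 to 3. Knockout heart 3 thus exceeded the next highest heart 3.47-fold in this ratio. Etfdh, the dehydrogenase that passes electrons from the flavoprotein to ubiquinone, followed Etfa with 46.1, 46.4 and 68.8 CPM across controls 1 to 3 and 42.8, 73.2 and 151 CPM across knockouts 1 to 3.

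Fold changes of the electron transfer genes rested on that heart. For Etfa the group levels were 139 ± 46.7 CPM for controls and 277 ± 241 CPM for knockouts (SD, n = 3 each). Etfa had a log2 fold change of 1.00 (SE 0.57, 95% confidence interval -0.30 to 2.29, edgeR adjusted p = 0.694) and of 0.01 with knockout library 3 left out. Etfdh was at 53.8 ± 12.99 CPM for controls and 89.1 ± 55.9 CPM for knockouts. Etfdh had a log2 fold change of 0.73 (SE 0.42, 95% confidence interval -0.22 to 1.68, edgeR adjusted p = 0.694) and of 0.11 without that library. Etfb had a log2 fold change of -0.02 (interval -0.45 to 0.40), whose sign turned without TMM factors (0.13). Its control level of 332 ± 3.73 CPM (SD, n = 3) had the smallest spread relative to the mean among the 31 genes. In GENCODE M21 Etfb shares 617 of its 1164 exonic bases with the protein-coding gene Gm45233, which was not analysed here, so its level is uncertain.

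**Figure D3:**
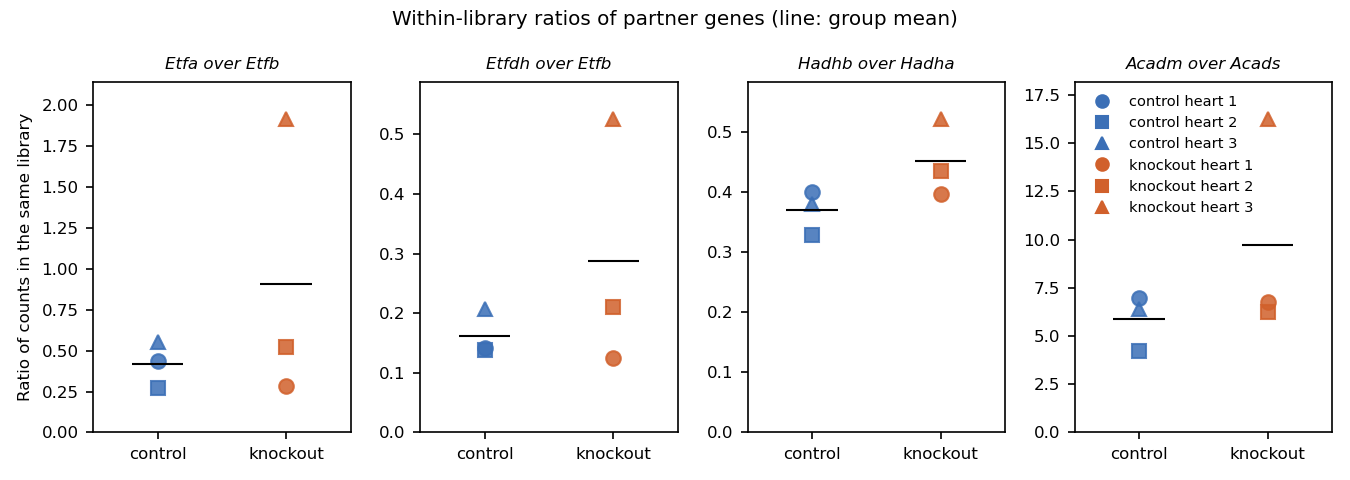
Ratio of the counts of partner genes within each library, in control (blue) and knockout (orange) hearts, with black lines at the group means. Knockout heart 3 has the highest ratio in all 4 panels, at 1.92 for Etfa over Etfb and 16.25 for Acadm over Acads, and groups overlap in each panel.

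Among the acyl-CoA dehydrogenases, which open each round of beta-oxidation and differ in the chain length they take, the medium-chain enzyme Acadm had the widest spread among knockout hearts relative to its mean. Acadm was at 259.7, 203 and 317 CPM across controls 1 to 3 and 217, 308 and 599.8 CPM across knockouts 1 to 3. Again knockout heart 3 was the highest and the other knockout hearts lay within the control range, so that the groups overlapped. The group levels were 259.7 ± 56.96 CPM for controls and 375 ± 200.1 CPM for knockouts (SD, n = 3 each). Acadm had a log2 fold change of 0.53 (SE 0.37, 95% confidence interval -0.31 to 1.37, edgeR adjusted p = 0.694) and of 0.02 without knockout library 3. Acads, the short-chain enzyme, did not share this pattern, with 37.2, 47.99 and 49.3 CPM across controls 1 to 3 and 32.1, 49.5 and 36.9 CPM across knockouts 1 to 3. Acads had a log2 fold change of -0.18 (SE 0.22, 95% confidence interval -0.68 to 0.32, edgeR adjusted p = 0.767) and of -0.39 without knockout library 2 and -0.06 without knockout library 1. The ratio of Acadm to Acads was 6.98, 4.22 and 6.41 across controls 1 to 3 and 6.74, 6.23 and 16.25 across knockouts 1 to 3. The very-long-chain enzyme Acadvl was at 271, 204 and 302 CPM across controls 1 to 3 and 199, 260.2 and 337 CPM across knockouts 1 to 3. The long-chain enzyme Acadl was at 437, 257 and 462 CPM across controls 1 to 3 and 352, 409 and 504 CPM across knockouts 1 to 3. Both had overlapping groups, with log2 fold changes of 0.03 and 0.13 (and of -0.17 and -0.02 without knockout library 3).

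Of the 7 genes of the trifunctional protein and later steps, 6 had a fold change above 0 with all hearts, and 2 (Hadhb and Hadh) without knockout library 3. Hadh, the short-chain 3-hydroxyacyl-CoA dehydrogenase, was at 122, 75.5 and 172 CPM across controls 1 to 3 and 113, 157 and 382 CPM across knockouts 1 to 3. Its highest and lowest values were knockout heart 3 and control heart 2. The means were 123 ± 48.3 CPM for controls and 217 ± 144 CPM for knockouts (SD, n = 3 each). Hadh had a log2 fold change of 0.82 (SE 0.47, 95% confidence interval -0.24 to 1.88, edgeR adjusted p = 0.694) and of 0.13 with knockout library 3 left out and 0.55 with control library 2 left out. Hadhb, the thiolase subunit of the trifunctional protein, was at 142, 97.8 and 178 CPM across controls 1 to 3 and 119.9, 175 and 303 CPM across knockouts 1 to 3, with overlapping groups. Hadhb had a log2 fold change of 0.51 (SE 0.36, 95% confidence interval -0.30 to 1.33, edgeR adjusted p = 0.694) and of 0.08 without knockout library 3. Hadha, the hydratase and dehydrogenase subunit that shares the promoter stretch shown above, was at 356, 297 and 469 CPM across controls 1 to 3 and 302, 402 and 582 CPM across knockouts 1 to 3 (log2 fold change 0.20, or -0.09 without knockout library 3). The ratio of Hadhb to Hadha was 0.40, 0.329 and 0.381 across controls 1 to 3 and 0.397, 0.435 and 0.522 across knockouts 1 to 3. Knockout heart 3 exceeded the next highest heart 1.20-fold in this ratio, where it did so 3.47-fold for the flavoprotein subunits.

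The remaining enzymes of these steps had smaller fold changes than Hadh and Hadhb. Acat1, a mitochondrial thiolase of short acetoacetyl-CoA units and of ketone use, was at 189, 134 and 225 CPM across controls 1 to 3 and 120.5, 176 and 373 CPM across knockouts 1 to 3, and its fold change of 0.29 turned to -0.30 without knockout library 3. The hydratase Echs1 was at 51.9, 45.2 and 66.1 CPM across controls 1 to 3 and 37.3, 58.2 and 94.2 CPM across knockouts 1 to 3 (0.22, and -0.19 without knockout library 3). Acaa2, the mitochondrial 3-ketoacyl-CoA thiolase, was at 179.7, 159.9 and 233 CPM across controls 1 to 3 and 133, 205 and 244 CPM across knockouts 1 to 3, with a log2 fold change of 0.03 (-0.17 without knockout library 3). The peroxisomal thiolase Acaa1a was at 23.7, 24.6 and 27.2 CPM across controls 1 to 3 and 18.5, 29.8 and 22.1 CPM across knockouts 1 to 3 with a log2 fold change of -0.10, which was 0.03 without TMM factors. Reads of Acaa1a may be shared with its close paralogue Acaa1b, which held 4 to 10.5 counts per library.

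The 3 auxiliary enzymes, which bring the double bonds of unsaturated fatty acids into a form that beta-oxidation can use, took the same order of hearts within each group. The isomerase Eci1 was at 92.1, 66.2 and 108 CPM across controls 1 to 3 and 81.98, 102 and 129.8 CPM across knockouts 1 to 3, with overlapping groups. Eci1 had a log2 fold change of 0.23 (SE 0.25, 95% confidence interval -0.34 to 0.81, edgeR adjusted p = 0.748) and of 0.05 without knockout library 3 as well as without control library 2. Its relative Eci2 was at 43.9, 35.7 and 50.4 CPM across controls 1 to 3 and 39.5, 43.7 and 60.97 CPM across knockouts 1 to 3. Eci2 had a log2 fold change of 0.15 (SE 0.23, 95% confidence interval -0.37 to 0.66, edgeR adjusted p = 0.81) and of -0.06 without that library. The reductase Decr1 was at 164, 159.9 and 197 CPM across controls 1 to 3 and 125, 194 and 256 CPM across knockouts 1 to 3 (log2 fold change 0.14, or -0.12 without that library). All 3 were highest in knockout heart 3 and, among controls, in control heart 3.

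Of the 6 genes of activation and the carnitine shuttle, 3 lay above and 3 below 0 with all hearts, and all 6 below 0 without knockout library 3. Crat, carnitine acetyltransferase, which buffers acetyl-CoA with carnitine, was at 138, 134 and 164 CPM across controls 1 to 3 and 103, 133 and 109.8 CPM across knockouts 1 to 3. Its highest knockout value lay just under its lowest control value (145 ± 16.6 CPM for controls and 115 ± 15.5 CPM for knockouts, SD, n = 3 each). Crat had a log2 fold change of -0.33 (SE 0.19, 95% confidence interval -0.77 to 0.11, edgeR adjusted p = 0.694). The carnitine transporter Slc22a5 was at 10.2, 17.1 and 10.4 CPM across controls 1 to 3 and 8.88, 7.56 and 12.7 CPM across knockouts 1 to 3, with control heart 2 the highest. Slc22a5 had a log2 fold change of -0.36 (SE 0.28, 95% confidence interval -1.0 to 0.28, edgeR adjusted p = 0.698) and of -0.60 without knockout library 3 and -0.09 without control library 2. Acsl1, the main long-chain acyl-CoA synthetase of the heart, was at 166, 145 and 218 CPM across controls 1 to 3 and 149, 182 and 307 CPM across knockouts 1 to 3, and its fold change of 0.27 became -0.09 without knockout library 3. Cpt2, the carnitine palmitoyltransferase of the inner membrane, was at 72.7, 56.4 and 85.1 CPM across controls 1 to 3 and 68.8, 69.4 and 96.4 CPM across knockouts 1 to 3 (log2 fold change 0.13). Mlycd, which degrades the shuttle's inhibitor malonyl-CoA, was at 30.6, 22.7 and 31.5 CPM across controls 1 to 3 and 24.9, 30.02 and 44.01 CPM across knockouts 1 to 3 (0.22). Without knockout library 3 these were -0.05 and -0.04.

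Cpt1b, the muscle carnitine palmitoyltransferase that limits entry into mitochondria, was at 224, 263 and 238 CPM across controls 1 to 3 and 205, 238 and 196 CPM across knockouts 1 to 3. The groups overlapped (log2 fold change -0.18, interval -0.61 to 0.24, and -0.28 without knockout library 2), and knockout heart 3 was the lowest. Its value may cover only part of the reads of this locus, as the settings of the counting are not known. In GENCODE M21 the protein-coding gene Gm44502 shares 2744 of the 3372 exonic bases of Cpt1b on the same strand, and the deposited counts of Cpt1b were 0.985 to 0.992 of those of Gm44502 in every library. The level of Cpt1b is therefore uncertain, and Gm44502 had a log2 fold change of -0.18 (interval -0.60 to 0.24).

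Among the genes of uptake and lipolysis, Slc27a1 had groups that did not overlap, whereas those of Lpl, Pnpla2 and Fabp4 overlapped. Slc27a1, a fatty acid transport protein of the plasma membrane, was at 43.5, 47.8 and 42.2 CPM across controls 1 to 3 and 30.6, 35.8 and 40.5 CPM across knockouts 1 to 3, so that each knockout heart lay under each control (44.5 ± 2.93 CPM for controls and 35.6 ± 4.96 CPM for knockouts, SD, n = 3 each). Slc27a1 had a log2 fold change of -0.32 (SE 0.18, 95% confidence interval -0.73 to 0.09, edgeR adjusted p = 0.694). The fold change lay between -0.42 and -0.23 with any single library left out. Lpl, which is made by cardiomyocytes and frees fatty acids from lipoproteins at the capillary wall, was at 3169, 3178 and 4326 CPM across controls 1 to 3 and 3042, 4485 and 5727 CPM across knockouts 1 to 3, with overlapping groups. Lpl had a log2 fold change of 0.31 (SE 0.30, 95% confidence interval -0.36 to 0.98, edgeR adjusted p = 0.718) and of 0.08 without knockout library 3. Pnpla2, the triglyceride lipase of lipid droplets, was at 147, 139 and 204 CPM across controls 1 to 3 and 112, 177 and 202 CPM across knockouts 1 to 3 (log2 fold change 0.00, or -0.18 without knockout library 3).

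Fabp4, a fatty acid binding protein of capillary endothelium and adipocytes, took another order of hearts than the enzymes. It was at 1124, 857 and 795 CPM across controls 1 to 3 and 1345, 567 and 1295 CPM across knockouts 1 to 3, with both the highest and the lowest value in the knockout group (log2 fold change 0.21, interval -0.56 to 0.98, and between 0.00 and 0.50 with 1 library left out). The 6 adipocyte markers summed to 0.553 to 3.704 CPM among controls and 0.605 to 3.77 CPM among knockouts, with Adipoq at 0 in control hearts 1 and 2 and in knockout heart 2 and Lep with 2 counts in all. Of the brown adipocyte markers, Elovl3 was at 0 in all 6 hearts and Ucp1 had 1 count in all, and Cidea was at 6.37 to 11.8 CPM. The 8 endothelial markers, all detected, summed to 323 to 415 CPM among controls and 259 to 509 CPM among knockouts, and the 5 capillary markers, all detected, to 356 to 463 CPM among controls and 213 to 346 CPM among knockouts. Their part in the levels of Fabp4 and Lpl was not tested.

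None of the 4 regulators was highest in knockout heart 3, and Ppara and Ppargc1b were lowest there. Esrra and Ppargc1a were neither. Ppargc1b, which encodes PGC-1 beta, was at 55.00, 41.8 and 39.3 CPM across controls 1 to 3 and 38.1, 34.8 and 28.2 CPM across knockouts 1 to 3, each knockout heart under each control. It was at 45.4 ± 8.44 CPM for controls and 33.7 ± 5.02 CPM for knockouts (SD, n = 3 each). Ppargc1b had a log2 fold change of -0.43 (SE 0.21, 95% confidence interval -0.90 to 0.04, edgeR adjusted p = 0.694), and its unadjusted p of 0.0689 was the smallest of the 31 genes. The value was -0.28 with control library 1 left out. Ppara, which encodes PPAR-alpha, was at 15.3, 11.1 and 16.4 CPM across controls 1 to 3 and 11.2, 15.6 and 9.53 CPM across knockouts 1 to 3, with overlapping groups. Ppara had a log2 fold change of -0.24 (SE 0.24, 95% confidence interval -0.80 to 0.31, edgeR adjusted p = 0.729) and of -0.10 without knockout library 3. Ppargc1a, which encodes PGC-1 alpha, was at 150.1, 98.6 and 125 CPM across controls 1 to 3 and 118, 164 and 106 CPM across knockouts 1 to 3, its highest value in knockout heart 2 (log2 fold change 0.05, or -0.10 without control library 2). Esrra, which encodes ERR-alpha, was among the steadiest of the 31, at 48.9, 50.8 and 59.3 CPM across controls 1 to 3 and 46.3, 57.6 and 58.3 CPM across knockouts 1 to 3 (log2 fold change 0.03, interval -0.39 to 0.45).

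**Figure D4:**
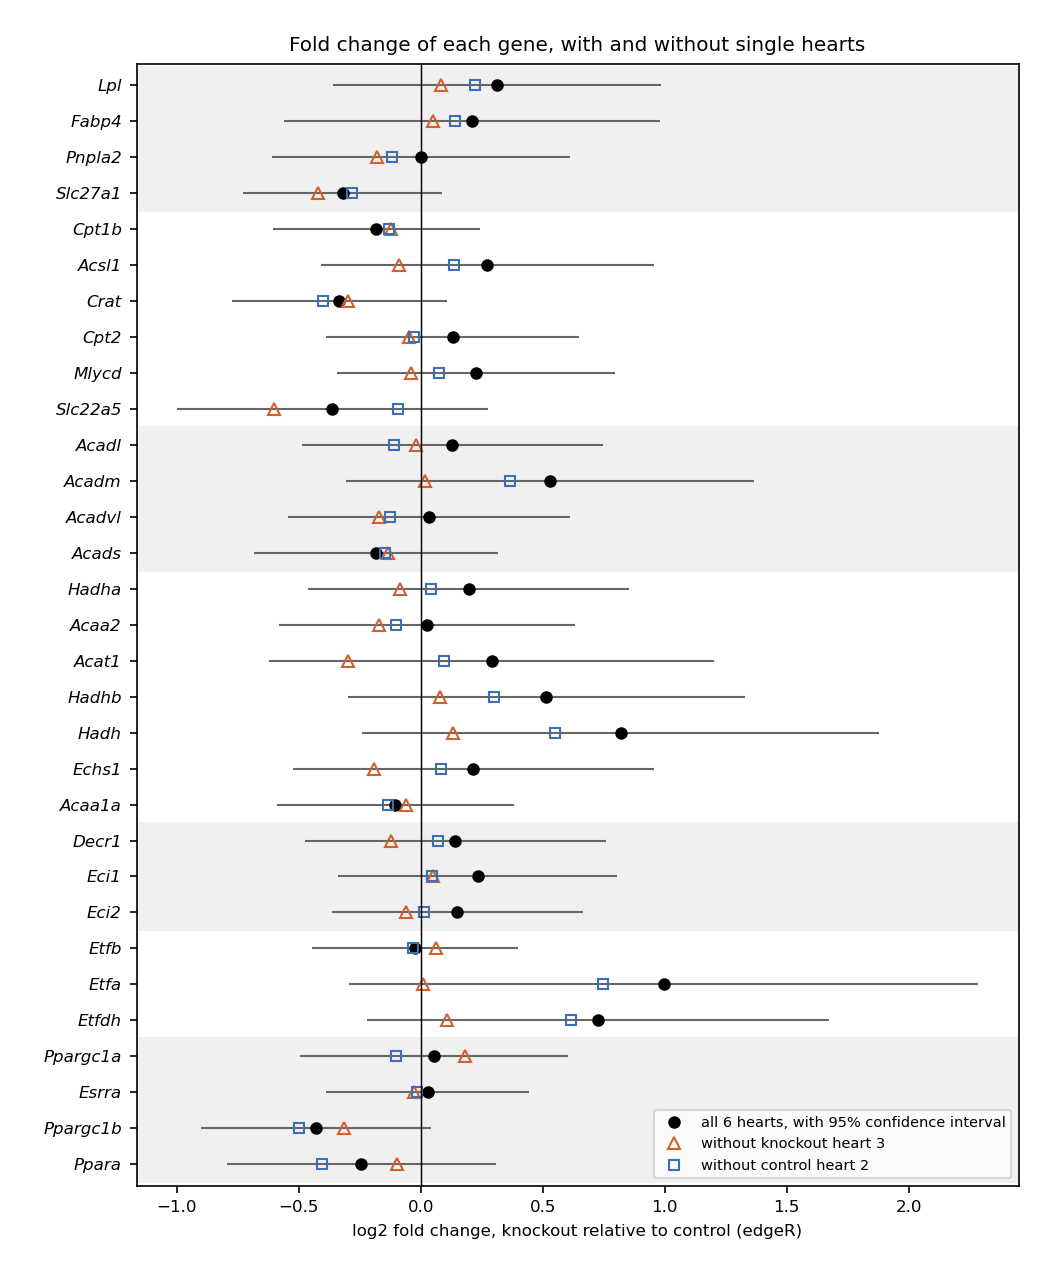
Log2 fold change of each of the 31 genes, knockout relative to control, from edgeR with TMM factors (black, with 95% confidence intervals, 3 hearts per group), without knockout heart 3 (orange triangles) and without control heart 2 (blue squares). Every interval crosses 0, and the triangles of Etfa, Etfdh, Hadh and Acadm lie at 0.01, 0.11, 0.13 and 0.02.

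Per length of mRNA (CPM per kilobase of the longest protein-coding transcript with a RefSeq partner in GENCODE M21), levels in control hearts spanned from 4.102 ± 1.29 for Slc22a5 to 1033 ± 195 for Fabp4 (SD, n = 3). Lpl followed Fabp4 with 865 ± 162 CPM per kilobase, within the spread of Fabp4, and Etfb was the highest of the mitochondrial enzymes with 371 ± 4.18. The next were Acadl with 201 ± 58.4, Acadm with 127 ± 27.8, Acaa2 with 126 ± 24.8 and Acadvl with 119.5 ± 23.2 CPM per kilobase, of which the last 3 did not differ beyond their spread. Cpt1b stood at 83.5 ± 6.75 CPM per kilobase. The places of Etfb and Cpt1b in this order are uncertain, since each shares exonic bases with another protein-coding gene, and reads of Cpt1b may be divided with Gm44502. The flavoprotein subunit Etfa stood at 99.8 ± 33.5 CPM per kilobase and so under its partner Etfb, Hadha at 93.1 ± 21.8 and Hadhb at 68.2 ± 19.7. Among regulators the order was Esrra with 23.6 ± 2.46, Ppargc1a with 19.3 ± 3.99, Ppargc1b with 12.4 ± 2.31 and Ppara with 4.19 ± 0.813 CPM per kilobase.

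The level of the 31 genes in knockout heart 3 went with the GC content of their mRNAs, a relation looked for after the values had been seen. The difference of knockout heart 3 from the median of the other 5 hearts, on the log2(CPM + 0.5) scale, had a Spearman rho of -0.56 and a Pearson r of -0.50 with mRNA GC content over the 31 genes, which are points of the same 6 libraries and not independent. Over 13185 tested genes with a GENCODE M21 transcript rho was -0.03 and r 0.02. The 16 genes with a GC content of 40.3% to 51.45% had a median difference of 0.85, and the 15 with 51.7% to 61.8% one of 0.19. Etfa, at 45.0% GC, and Etfb, at 57.1%, lay on opposite sides of that split, as did Acadm at 48.0% and Acads at 60.05%. Hadhb at 45.4% and Hadha at 51.3% lay on the same side, and Ppargc1a, at 41.7% GC, lay at -0.24. With mRNA length rho was -0.18 over the 31 genes and -0.21 over all. With offsets for GC content in each library, chosen after seeing the data, the log2 fold change of Etfa was 0.95 and that of Etfb 0.00. The offsets were fitted over all tested genes with a transcript, where rho for knockout heart 3 was -0.03, and not over the 31. The part of GC content in the levels of the 31 genes was therefore not tested.

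**Figure D5:**
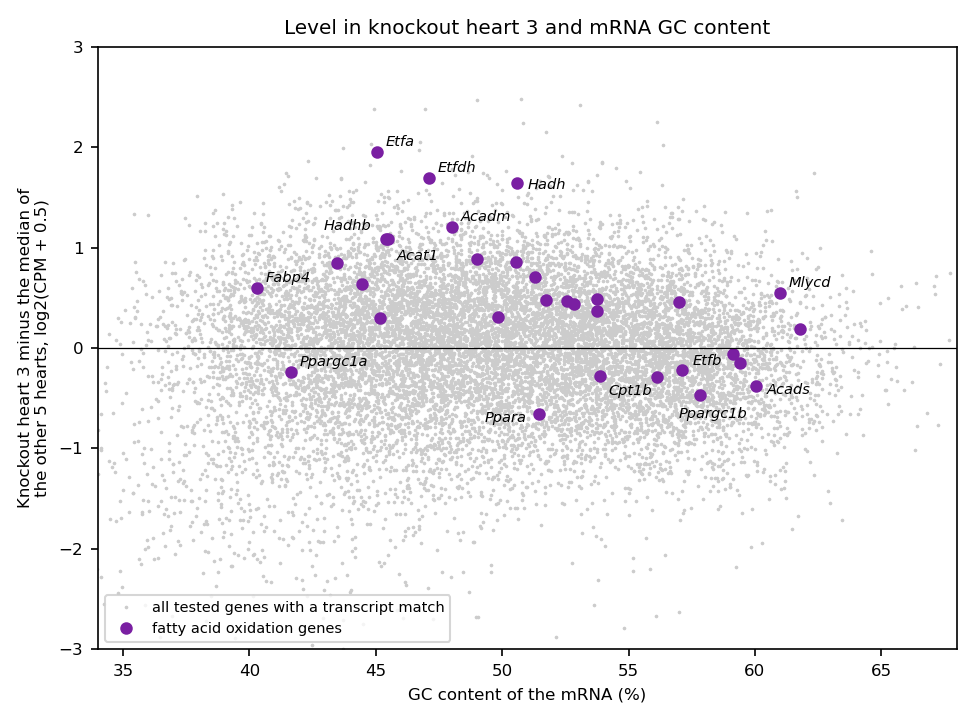
Level in knockout heart 3 minus the median of the other 5 hearts, on the log2(CPM + 0.5) scale, against GC content of the mRNA, for the 31 fatty acid oxidation genes (purple) and tested genes with a transcript match (grey, 66 of 13185 outside the axes). Etfa lies at 1.95 with 45.0% GC, Acads at -0.37 with 60.05% GC and Ppara at -0.66 with 51.45% GC, and rho is -0.56 over the purple and -0.03 over the grey points.

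Beyond the 31 genes, 68 other genes of fatty acid transport, storage, peroxisomal oxidation, ketone use and control were read from the same fit, and 66 were tested (Slc27a6 and Acaa1b were not). None rose or fell at the adjusted threshold, 37 lay above and 29 below 0, and their median log2 fold change was 0.04, or -0.05 without knockout library 3. The order of hearts seen in the 31 genes was present here in part. Knockout heart 3 was the highest heart in 32 of the 66 (33.9% of all genes), and control heart 3 the highest control in 33 (34.1%). Their median was 0.38 higher in knockout heart 3 than in knockout heart 1, on the log2(CPM + 0.5) scale. At an unadjusted p of 0.05 there were 3, Ucp2, Tfam and Pdk4, where 5.14% of all genes passed. Ucp2, an uncoupling protein of the inner mitochondrial membrane, was at 6.13, 6.36 and 6.08 CPM across controls 1 to 3 and 8.27, 9.23 and 11.6 CPM across knockouts 1 to 3, each knockout heart above each control. Ucp2 had a log2 fold change of 0.65 (SE 0.20, 95% confidence interval 0.19 to 1.10, edgeR adjusted p = 0.694). Tfam, the packaging and transcription factor of mitochondrial DNA, was at 6.53, 5.895 and 6.68 CPM across controls 1 to 3 and 8.54, 8.02 and 14.9 CPM across knockouts 1 to 3, also without overlap. Tfam had a log2 fold change of 0.72 (SE 0.27, 95% confidence interval 0.11 to 1.33, edgeR adjusted p = 0.694) and of 0.38 without knockout library 3. Pdk4, the kinase that holds back pyruvate oxidation and a PPAR-alpha target, was at 111, 145 and 153 CPM across controls 1 to 3 and 312, 103 and 761 CPM across knockouts 1 to 3, with knockout heart 2 under every control. Pdk4 had a log2 fold change of 1.52 (SE 0.59, 95% confidence interval 0.19 to 2.85, edgeR adjusted p = 0.694) and of 0.60 without knockout library 3.

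On the side of lower values stood Gpihbp1, which anchors Lpl at the capillary wall, and Acacb, which makes the malonyl-CoA that inhibits Cpt1b. Gpihbp1 was at 69.1, 76.7 and 65.7 CPM across controls 1 to 3 and 62.1, 51.1 and 43.6 CPM across knockouts 1 to 3. Gpihbp1 had a log2 fold change of -0.43 (SE 0.19, 95% confidence interval -0.87 to 0.01, edgeR adjusted p = 0.694). It is 1 of the 5 capillary markers, of which Aqp1 was also lower in each knockout than in each control heart, while Rgcc and Cd300lg were highest of all 6 hearts in knockout heart 1. The part of endothelial cells in this value was not tested. Acacb was at 145, 167 and 163 CPM across controls 1 to 3 and 120.0, 134 and 106 CPM across knockouts 1 to 3. Acacb had a log2 fold change of -0.40 (SE 0.18, 95% confidence interval -0.82 to 0.02, edgeR adjusted p = 0.694). In both, each knockout heart lay under each control, as in Lipe and Abcd3, and in Ucp2, Tfam, Plin2 and Ehhadh each lay above, which makes 4 of 66 below (5.82% of all genes) and 4 above (6.26%).

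Other transport and shuttle genes varied between hearts as well, and the groups overlapped in each of the 6 described next. Fabp3, the fatty acid binding protein of cardiomyocytes, was at 1113, 857 and 1722 CPM across controls 1 to 3 and 1100.0, 1809 and 4005 CPM across knockouts 1 to 3, highest in knockout heart 3 and lowest in control heart 2 (log2 fold change 0.90, interval -0.16 to 1.97, and 0.24 without knockout library 3). Slc25a20, the carnitine-acylcarnitine carrier of the inner membrane, was at 49.03, 53.2 and 71.2 CPM across controls 1 to 3 and 48.1, 79.2 and 105 CPM across knockouts 1 to 3 (0.42, and 0.14 without that library). Cd36, the fatty acid translocase of endothelium and cardiomyocytes, was at 529, 417 and 523 CPM across controls 1 to 3 and 624, 465 and 820.3 CPM across knockouts 1 to 3 (0.38, and 0.15 without that library). Cpt1a, the liver form of the outer-membrane palmitoyltransferase, was at 10.8, 9.67 and 8.66 CPM across controls 1 to 3 and 11.9, 7.41 and 13.9 CPM across knockouts 1 to 3 (0.19, and 0.00 without that library). Angptl4, a secreted inhibitor of Lpl, was at 3.31, 4.24 and 2.71 CPM across controls 1 to 3 and 8.27, 2.12 and 3.99 CPM across knockouts 1 to 3 (0.50, interval -0.53 to 1.53, and -0.14 without knockout library 1, its highest heart). Ucp3, the uncoupling protein of muscle, was at 12.3, 12.1 and 8.07 CPM across controls 1 to 3 and 8.54, 4.46 and 9.37 CPM across knockouts 1 to 3 (-0.52, interval -1.21 to 0.16, and -0.28 without knockout library 2).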

How the data were processed

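Per the labels' protocols, heart RNA extracted with TRIzol was reverse transcribed from a poly(dT) primer, so libraries hold polyadenylated RNA, and the double-stranded cDNA was tagmented, indexed and amplified. Per the submitters' processing notes the build was mm39. The tools they list are edgeR 4.0.16, Subread 2.1.1 with featureCounts, STAR 2.7.11 and SAMtools 1.22.1. The authors' deposited table holds estimated counts, with fractions of a read in 21.3% to 22.7% of detected genes and in 22 of the 31 genes, and the authors' deposited CPM, each column summing to the same total with no correction for composition. Strand and multi-mapping settings are not stated in the sources used here, so the 9 genes of the 31 whose exons overlap a gene on the other strand in GENCODE M21 (Acaa1a, Acadvl, Acsl1, Crat, Echs1, Eci2, Esrra, Etfdh and Hadha) are uncertain.

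Counts were rounded and fitted in R 4.3.3 by the quasi-likelihood test of edgeR 4.0.16 with TMM factors, for genes with a deposited CPM of at least 1 in at least 3 libraries, and adjusted by the Benjamini-Hochberg method, two-sided. CPM values printed are counts divided by the library total times its TMM factor. Standard errors come from the F statistic. The fit was tested on simulated counts with a spread common to all genes and no library apart in composition, unlike knockout library 3. The alternatives were DESeq2 1.42.0, limma-trend (limma 3.58.1) on log2(CPM + 0.5) and log2(CPM + 1), no TMM factors, other filters, the replicate number as a block, no mitochondrial genes, and each library left out. The 31 genes and the lists were chosen with earlier results of these data known. All 31 are described by role, with full statistics for the 2 with the smallest p of each role, and of the other list the 5 with the smallest p and 8 whatever their values, of which Pdk4 and Acacb are also among those 5. Same-numbered hearts of the groups had correlations of deviations of -0.113, 0.445 and 0.583, which cannot decide whether the numbers pair them. The main fit did not pair them. Groups came from the labels, which name separate hearts, and no sample was left out. Libraries held 12270796 to 15141525 counts.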

Additional observations from a re-analysis of the deposited data

How the results depend on the processing

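With all hearts edgeR called 0 genes, and 705 had an unadjusted p under 0.05. DESeq2 called 15 genes, limma-trend on log2(CPM + 1) 1, edgeR with no filter 133 and edgeR with the replicate block 5, and with 1 library left out the count was 0 to 1. Of the 31 genes, the calls stayed at 0 except with no filter, where 1 was called (Etfa, log2 fold change 1.03, edgeR adjusted p = 0.0302), as was 1 of the other list (Pdk4, 1.56). Ybx1 was called by DESeq2, by limma-trend on log2(CPM + 1), with no filter, with the replicate block and without knockout library 3. The block moved no call of the 31 genes. Control heart 1 correlated best with knockout heart 3, control heart 2 with knockout heart 1 and control heart 3 with knockout heart 3. Deviations from a mean of 3 hearts depend on each other, so these correlations cannot decide whether the numbers pair the hearts. With 1 library left out, the number of the 31 above 0 was 10 to 23, their median -0.0616 to 0.24, and the median of the other list -0.0631 to 0.13. Without knockout library 1, 6 of the 31 had an unadjusted p under 0.05, where 12.7% of all genes did, and without knockout library 3, 2 (Slc22a5 and Slc27a1), where 3.78% did. Fold changes near 0 turned sign with all hearts for Acaa2 (replicate block -0.0002, GC-adjusted offsets -0.0059), Etfb (no TMM factors 0.13, limma-trend 0.1307 and 0.1305, GC-adjusted offsets 0.0026), Pnpla2 (DESeq2 -0.0071, replicate block -0.02) and Acaa1a (no TMM factors 0.0261, limma-trend 0.0276 and 0.0269). Ranges with 1 library left out, for genes whose sign turned, were Acsl1 -0.088 to 0.47, Cpt2 -0.0474 to 0.28, Acadvl -0.17 to 0.20, Acadl -0.11 to 0.28, Hadha -0.0864 to 0.39, Echs1 -0.19 to 0.48, Acaa2 -0.17 to 0.23, Eci2 -0.0591 to 0.27, Decr1 -0.12 to 0.37, Etfb -0.0854 to 0.0619, Ppargc1a -0.17 to 0.20, Esrra -0.0396 to 0.12, Mlycd -0.0404 to 0.39, Pnpla2 -0.18 to 0.21, Acat1 -0.30 to 0.58, Acaa1a -0.33 to 0.0361 and Angptl4 -0.14 to 0.83. The cause was not tested. The limma-trend fits used the deposited CPM without TMM factors, and the GC-adjusted offsets were chosen after seeing the data. The lowest of the deposited counts behind the 31 genes was 99.5.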
